A study of Mus musculus with 62 samples.

Results

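The genes described here are 9 genes by which fat cells are usually recognised, Adipoq, Fabp4, Plin1, Cidec, Lep, Retn, Cfd, Lpl and Pparg, followed in whole lung tissue of mice challenged with a house dust mite allergen. They were chosen by name, as array features whose annotation gives 1 gene symbol equal to 1 of the 9. In this way 8 of the 9 genes had a measured feature (a transcript cluster), each exactly 1, among the 14824 genes named on the array, and Cfd, which encodes the complement protease factor D (adipsin), was not measured. The clusters were 6840111 for Adipoq, 6973692 for Retn, 6944966 for Lep, 6903185 for Fabp4, 6968727 for Plin1, 6956558 for Cidec, 6976901 for Lpl and 6949202 for Pparg.

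The tissue was the lower lobe of the right lung, and its RNA, from 48 male mice in all, was hybridised to 62 exon arrays. Both strains are inbred, and each mouse had been sensitised by the intraperitoneal route with 10 µg of Der p 1, an allergenic protease of mites, on days 1 and 8. On day 15 the mice were challenged with 50 µg of Der p 1 or with PBS, and the lungs were collected on day 18, 72 h later, so the PBS mice carried the same sensitisation. The groups were 14 BALB/cJ mice after Der p 1, 11 BALB/cJ mice after PBS, 12 C57BL/6J mice after Der p 1 and 11 C57BL/6J mice after PBS, and the labels do not give the age of the mice. The mouse numbers begin with 5 (20 mice, called series 5 here) or with 6 (28 mice, series 6), and the labels do not say how the 2 series differ. The groups held 6, 5, 4 and 5 mice of series 5, in the order above, and 8, 6, 8 and 6 of series 6. Single mice are named by their place within a group, counted in the order of the mouse numbers.

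Levels are the deposited log2 values, so a difference of 1 is a doubling, and levels of different genes were not compared because each cluster has its own probes. Differences are given ± standard error (SE) from a limma fit with 1 mean per group, and a gene passed where its p-value, adjusted by the Benjamini-Hochberg method over 16715 clusters, was under 0.05. Array medians lay between 6.39 and 6.62, while the standard deviation (SD) over the clusters of an array, a measure of how widely its values spread, lay between 1.44 and 2.09. The mean array SD was 1.95 and 1.94 in BALB/cJ mice after Der p 1 and after PBS, and 1.86 and 1.96 in C57BL/6J mice after Der p 1 and after PBS. The mean level of 10 markers of alveolar type II cells, the surfactant-producing cells of the lung, was between 10.3 and 11.4 in every mouse. No other tissue was at hand for comparison, and this level cannot show whether other tissue was mixed in.

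A pair of BALB/cJ mice of series 6 was left out in an earlier analysis of these data. They are described here by Chil3, a chitinase-like gene that allergens induce in the lung. Mouse 11 of the Der p 1 group had a Chil3 level of 9.10, where the other 13 mice of its group had a median of 11.58 and a range from 8.62 to 12.38, so it was at the low end of its group. Mouse 11 of the PBS group had 12.20, where the other 10 mice of its group lay between 7.32 and 9.73, so it was above them all and went against its label. They were kept under their labels, and results for BALB/cJ mice are also given without both. Without them 4.84% of all clusters passed in BALB/cJ mice after challenge, 1.52% as lower. Below they are called the mice set apart by Chil3, although the Der p 1 mouse lay within the range of its group. Chil3 itself responds to the challenge, so leaving these mice out can widen the challenge differences. Calls gained without them are therefore no separate support for a response.

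White fat cells store triglyceride in a single large lipid droplet and release hormones, the adipokines. Lipoprotein lipase frees fatty acids from circulating lipoproteins, fatty acid binding proteins carry them inside the cell, perilipin and CIDE proteins coat and enlarge the droplet, and the nuclear receptor PPAR gamma switches on much of this set of genes. Several of these genes are not limited to fat. PPAR gamma is needed by alveolar macrophages, Fabp4 is made by capillary endothelium and macrophages, and Lpl is also made by muscle and macrophages. In a bulk sample, fewer cells of a type and less RNA per cell cannot be told apart.

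The promoters of 4 of the genes are shown because Adipoq and Retn, of all pairs of the 8 genes, were the most alike from lung to lung, and Plin1 and Lep also varied together. Plin1 and Lep each varied with the array SD too (Pearson's r = -0.829 and -0.765), and shared regulation was not tested. The level of Fabp4 followed those of Retn and Adipoq as well, and no window was found for it. Each sequence is the 250 bases before the annotated transcription start, 5′ to 3′ on the strand of the gene, from RefSeq for GRCm38.p6. The windows are chr16:23146286-23146535 on the plus strand for Adipoq, chr8:3655520-3655769 on the plus strand for Retn, chr7:79732777-79733026 on the minus strand for Plin1 and chr6:29059971-29060220 on the plus strand for Lep. Capitals mark matches on either strand to CCAAT (the CCAAT box), AGGTCA (a nuclear receptor half-site), 2 copies of AGGTCA with 1 base between them (direct repeat 1, the form bound by PPAR gamma with RXR), TTGCNNAA (C/EBP-like) or TATAAA (the TATA box). Apart from the direct repeat, which holds the half-site, no motif contains another.
Adipoq: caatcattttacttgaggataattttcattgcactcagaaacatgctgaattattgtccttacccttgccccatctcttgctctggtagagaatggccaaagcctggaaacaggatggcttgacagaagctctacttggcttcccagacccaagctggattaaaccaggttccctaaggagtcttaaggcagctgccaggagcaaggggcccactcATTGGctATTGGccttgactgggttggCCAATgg
Retn: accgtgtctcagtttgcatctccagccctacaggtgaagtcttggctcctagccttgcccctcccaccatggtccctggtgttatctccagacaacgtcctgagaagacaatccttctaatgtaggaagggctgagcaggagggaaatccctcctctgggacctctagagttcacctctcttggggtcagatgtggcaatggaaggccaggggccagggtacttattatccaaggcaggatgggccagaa
Plin1: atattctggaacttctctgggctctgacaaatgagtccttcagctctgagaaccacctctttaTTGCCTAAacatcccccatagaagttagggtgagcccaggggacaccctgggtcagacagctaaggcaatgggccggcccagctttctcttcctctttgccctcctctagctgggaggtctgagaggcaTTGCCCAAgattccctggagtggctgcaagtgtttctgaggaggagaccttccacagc
Lep: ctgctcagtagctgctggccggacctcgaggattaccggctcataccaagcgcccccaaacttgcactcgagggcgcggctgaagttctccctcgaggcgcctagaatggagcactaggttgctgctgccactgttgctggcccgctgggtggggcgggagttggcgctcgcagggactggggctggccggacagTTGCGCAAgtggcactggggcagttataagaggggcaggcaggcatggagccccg

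The Adipoq window holds 3 matches to CCAAT, beginning 34, 27 and 7 bases before the start, and the Retn window holds 0 matches to any of the 5 motifs. The Plin1 window holds 2 C/EBP-like matches, beginning 187 and 58 bases before the start, and the single C/EBP-like match of Lep, 55 bases before the start, reads as a match on both strands. Over 32841 promoter windows of the same length, 33.9% hold CCAAT, 14.0% AGGTCA, 9.57% TTGCNNAA, 12.4% TATAAA and 0.0335% the direct repeat, which none of the 10 windows found for 7 of the 9 genes holds. These matches describe letters in a short window and were not set against binding data.

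After challenge, 2 of the 8 measured fat cell genes were lower in C57BL/6J lungs, Cidec and Adipoq, and 0 of 8 passed in BALB/cJ lungs. In C57BL/6J mice 18.8% of all clusters passed, 8.97% of all clusters as lower, so the 2 of 8 stand beside a large response of the whole array. In BALB/cJ mice 1.93% of all clusters passed, and 0.233% as lower. By limma, 1 of the 8 genes in BALB/cJ mice had an unadjusted p under 0.05, as had 2005 of 16715 clusters. Without both mice named above 0 of 8 still passed, where 4.84% of all clusters passed. The median difference over the 8 genes was -0.26 in C57BL/6J mice, against 0.06 over all genes, and -0.17 in BALB/cJ mice, against -0.03 over all genes. The difference was below 0 for 7 of the 8 genes in each strain, where 41.8% of all genes were below 0 in C57BL/6J mice and 58.5% in BALB/cJ mice. Some of these values were close to 0, and that of Fabp4 turned direction in both strains when some single mice were left out. Within series 5 each of the 8 BALB/cJ differences was below 0, those of Lpl (-0.03 ± 0.13) and Lep (-0.15 ± 0.20) by less than their SE. Within series 6 those of Adipoq (0.07 ± 0.40), Fabp4 (0.18 ± 0.20), Plin1 (0.002 ± 0.12) and Retn (0.01 ± 0.23) were above 0 by less than their SE. That of Lpl was 0.18 ± 0.11. By limma 0 of the 8 had an unadjusted p under 0.05 in series 6. The share of all genes below 0 within each series is not given, so these directions do not show a reversal of the set.

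**Figure D1:**
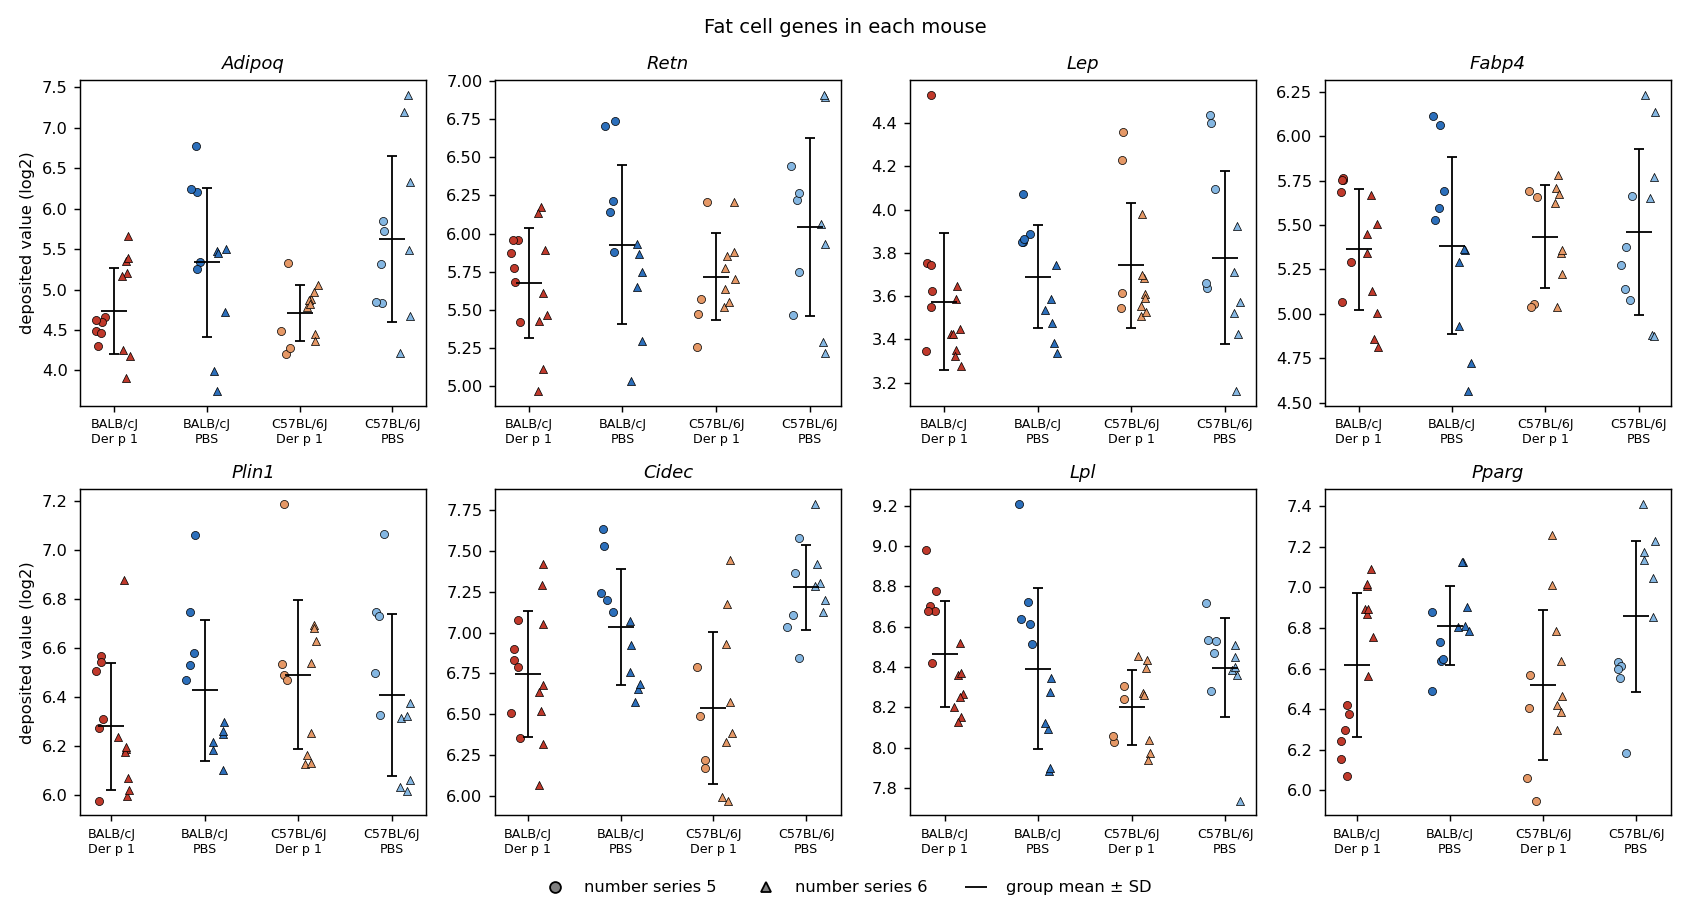
Deposited log2 value (vertical axis, log2) of the 8 measured fat cell genes in each of 48 mice, by strain and challenge, with circles for number series 5, triangles for series 6 and black bars for the group mean ± SD. Adipoq has its highest values, 7.41 and 7.19, in 2 C57BL/6J mice after PBS, and the C57BL/6J mice after Der p 1 lie between 4.21 and 5.33.

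Among the adipokines, Adipoq encodes adiponectin, the most abundant hormone of fat cells. In C57BL/6J mice its lowest, median and highest levels were 4.21, 4.80 and 5.33 after Der p 1, against 4.21, 5.49 and 7.41 after PBS. The groups overlapped at the low end, and all 12 challenged mice lay below the mean of the PBS mice. The mean was 4.71 ± 0.35 after Der p 1 and 5.63 ± 1.02 after PBS (SD, n = 12 and 11), a difference of -0.92 ± 0.29 or 1.89-fold lower (limma, adjusted p = 0.0231). The call rested in part on 2 mice of the PBS group. Without mouse 6 the difference was -0.74 (adjusted p = 0.0606), and without mouse 8 it was -0.76 (adjusted p = 0.0557). Over 13 other ways of processing the data the adjusted p ranged from 0.00998 to 0.192 and passed in 11.

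Adipoq in BALB/cJ mice had lowest, median and highest levels of 3.90, 4.61 and 5.66 after Der p 1, against 3.75, 5.46 and 6.77 after PBS. The 2 groups overlapped over most of their range, and 11 of 14 challenged mice lay below the PBS mean. The mean was 4.73 ± 0.53 after Der p 1 and 5.34 ± 0.92 after PBS (SD, n = 14 and 11), a difference of -0.60 ± 0.28 that did not pass (unadjusted p = 0.0374, adjusted p = 0.365). Without both mice set apart by Chil3 it was -0.71 ± 0.30 (adjusted p = 0.190), and over 14 other ways of processing the adjusted p ran from 0.00662 to 0.999. The number series differed here. In series 5 the 6 mice after Der p 1 lay between 4.30 and 4.66 and the 5 mice after PBS between 5.25 and 6.77, so the groups did not overlap, and the Adipoq difference was -1.44 ± 0.26 (adjusted p = 0.00662). It was 1 of the 0.0359% of clusters that passed as lower in that comparison. In series 6 the 8 mice after Der p 1 lay between 3.90 and 5.66 and the 6 mice after PBS between 3.75 and 5.51, with a difference of 0.07 ± 0.40 (adjusted p = 0.983). In that series 0 of 16715 clusters passed by limma and 1834 had an unadjusted p under 0.05. Without both mice 923 clusters passed in series 6, or 5.52%, and the Adipoq difference was -0.01 ± 0.44 (adjusted p = 0.999).

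The difference between the responses of the 2 series was tested in a fit with 8 means. The Adipoq response of BALB/cJ mice in series 6 minus that of series 5 was 1.51 ± 0.53 (unadjusted p = 0.00625), which did not pass over all clusters (adjusted p = 0.9996). No cluster passed this limma test in BALB/cJ mice, where 630 had an unadjusted p under 0.05. Without both mice it was 1.43 ± 0.56 (adjusted p = 0.777), and 3 clusters passed. For C57BL/6J mice it was -0.37 ± 0.56, with 0 clusters passing by limma and 1210 at an unadjusted p under 0.05. There series 5 gave an Adipoq difference of -0.74 ± 0.29 (adjusted p = 0.192), and series 6 gave -1.11 ± 0.40 (adjusted p = 0.0414).

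Retn encodes resistin, which mouse fat cells secrete. Retn levels in C57BL/6J mice had a lowest, median and highest value of 5.25, 5.67 and 6.21 after Der p 1, against 5.22, 6.06 and 6.91 after PBS. Those in BALB/cJ mice were 4.97, 5.73 and 6.17 after Der p 1, against 5.03, 5.88 and 6.74 after PBS. The groups overlapped in both strains, and the highest levels of each strain were in PBS mice. The differences were -0.32 ± 0.18 in C57BL/6J mice (adjusted p = 0.192) and -0.25 ± 0.17 in BALB/cJ mice (adjusted p = 0.646), and neither passed. Within series 5 the BALB/cJ difference of Retn was -0.56 ± 0.20 (unadjusted p = 0.0109, adjusted p = 0.298), and within series 6 it was 0.01 ± 0.23.

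Lep encodes leptin, the satiety hormone of fat cells. Its lowest, median and highest levels were 3.51, 3.61 and 4.36 in C57BL/6J mice after Der p 1, against 3.16, 3.66 and 4.44 after PBS. Lep levels in BALB/cJ mice were 3.28, 3.50 and 4.53 after Der p 1, against 3.34, 3.74 and 4.07 after PBS. The groups overlapped almost fully. Lep was in the dimmest 25% of clusters, and its differences of -0.04 ± 0.13 in C57BL/6J mice and -0.12 ± 0.13 in BALB/cJ mice did not pass (adjusted p = 0.859 and 0.831).

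**Figure D2:**
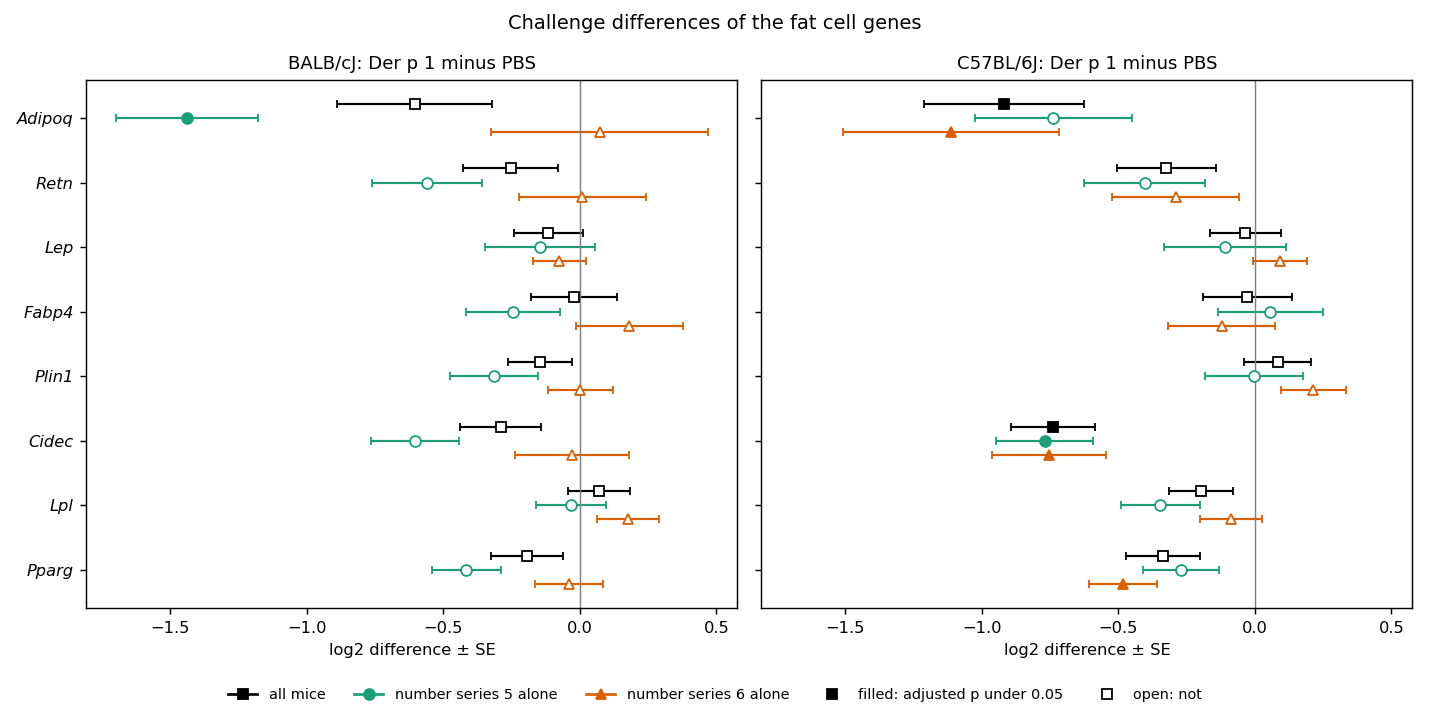
Difference between Der p 1 and PBS mice (horizontal axis, log2 ± SE) for the 8 genes in BALB/cJ (left) and C57BL/6J mice (right), over all mice and within each number series, with filled symbols for an adjusted p under 0.05. Cidec lies between -0.74 and -0.77 in the 3 C57BL/6J fits, while Adipoq in BALB/cJ mice lies at -1.44 in series 5 and at 0.07 in series 6.

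Of the genes of lipid storage, Cidec encodes a protein of the lipid droplet surface that makes droplets fuse and grow. Cidec in C57BL/6J mice had lowest, median and highest levels of 5.97, 6.44 and 7.44 after Der p 1, against 6.85, 7.29 and 7.79 after PBS. Of the challenged mice 9 lay below the whole PBS group, though the ranges overlapped, and 11 of 12 were below the PBS mean. The mean was 6.54 ± 0.46 after Der p 1 and 7.28 ± 0.26 after PBS (SD, n = 12 and 11), a difference of -0.74 ± 0.15 or 1.67-fold lower (adjusted p = 0.000795). Cidec passed whichever mouse was left out, with an adjusted p of at most 0.00256, and under each of 13 other ways of processing.

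The lower Cidec level of C57BL/6J mice held within both number series. In series 5 it was -0.77 ± 0.18 (adjusted p = 0.0262) and the groups did not overlap, as for 1.78% of all clusters in that direction, where 0.574% of clusters passed as lower. In series 6 it was -0.75 ± 0.21 (adjusted p = 0.0144), where 13% of clusters passed as lower. Cidec in BALB/cJ mice had lowest, median and highest levels of 6.06, 6.74 and 7.42 after Der p 1, against 6.57, 7.07 and 7.63 after PBS. The 2 groups overlapped, with a difference of -0.29 ± 0.15 (adjusted p = 0.434), or -0.38 ± 0.15 without both mice set apart by Chil3 (adjusted p = 0.165). Within series 5 the BALB/cJ groups did not overlap (-0.60 ± 0.16, adjusted p = 0.0988), which in that direction was so for 0.856% of all clusters and for Adipoq, Cidec and Pparg among the 8 genes. Within series 6 the Cidec difference was -0.03 ± 0.21 (adjusted p = 0.988), or -0.15 ± 0.22 without both mice.

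Plin1 encodes perilipin 1, which coats the droplet and restrains its breakdown. Plin1 levels, as lowest, median and highest, were 6.13, 6.51 and 7.19 in C57BL/6J mice after Der p 1, against 6.02, 6.32 and 7.06 after PBS. Those of BALB/cJ mice were 5.98, 6.22 and 6.88 after Der p 1, against 6.10, 6.30 and 7.06 after PBS. The groups overlapped throughout. The differences of 0.08 ± 0.12 and -0.15 ± 0.12 did not pass (adjusted p = 0.633 in C57BL/6J and 0.731 in BALB/cJ mice).

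Fabp4 encodes the fatty acid binding protein of fat cells. Its lowest, median and highest levels were 5.04, 5.49 and 5.78 in C57BL/6J mice after Der p 1, against 4.88, 5.38 and 6.23 after PBS. The BALB/cJ levels were 4.82, 5.40 and 5.76 after Der p 1, against 4.57, 5.36 and 6.11 after PBS. In both strains the PBS mice reached lower and higher than the challenged mice. The differences were -0.03 ± 0.16 in C57BL/6J mice and -0.02 ± 0.16 in BALB/cJ mice, with 95% intervals from -0.35 to 0.30 and from -0.34 to 0.29 (adjusted p = 0.917 and 0.981).

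Lpl encodes lipoprotein lipase. Its lowest, median and highest levels were 7.94, 8.25 and 8.46 in C57BL/6J mice after Der p 1, against 7.74, 8.45 and 8.72 after PBS. The BALB/cJ levels of Lpl were 8.13, 8.40 and 8.98 after Der p 1, against 7.88, 8.35 and 9.21 after PBS. The groups overlapped in both strains. The differences were -0.20 ± 0.12 in C57BL/6J mice (adjusted p = 0.221) and 0.07 ± 0.11 in BALB/cJ mice (adjusted p = 0.894). The C57BL/6J difference of Lpl was -0.35 ± 0.14 within series 5 (adjusted p = 0.220) and -0.09 ± 0.11 within series 6 (adjusted p = 0.566).

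Pparg, the regulator of the set, had lowest, median and highest levels of 5.95, 6.44 and 7.26 in C57BL/6J mice after Der p 1, against 6.18, 6.85 and 7.41 after PBS. The groups overlapped, and 10 of 12 challenged mice lay below the PBS mean. The difference of -0.34 ± 0.14 did not pass (adjusted p = 0.0747). It passed without mouse 3 of the PBS group (-0.40, adjusted p = 0.0222) and without mouse 6 (-0.40, adjusted p = 0.0249) or mouse 11 (-0.38, adjusted p = 0.0385) of the Der p 1 group. Over all mice left out singly it ran from -0.40 to -0.28. The limma adjusted p was highest, 0.151, without mouse 1 of the Der p 1 group. The Pparg difference also passed with the number series as a covariate (-0.39, adjusted p = 0.00188) and within series 6 (-0.48 ± 0.12, adjusted p = 0.0113). With the array SD as a covariate it was -0.14 (adjusted p = 0.443), and the adjusted p of the 13 settings ran from 0.00188 to 0.443. The array SD of the C57BL/6J mice was lower after Der p 1 than after PBS, as given above, and its part in the Pparg difference beyond this fit was not tested.

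The BALB/cJ mice had lowest, median and highest Pparg levels of 6.07, 6.66 and 7.09 after Der p 1, against 6.49, 6.81 and 7.12 after PBS. The lowest 6 values after Der p 1 all belonged to mice of series 5. The difference was -0.19 ± 0.13 over all mice (adjusted p = 0.645), and -0.23 ± 0.14 without both mice set apart by Chil3. Within series 5 the groups did not overlap (-0.41 ± 0.13, adjusted p = 0.181), and within series 6 the difference was -0.04 ± 0.12 (adjusted p = 0.970).

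The 2 strains were then compared. The challenge response of BALB/cJ minus that of C57BL/6J mice passed for 0 of the 8 genes and for 0.012% of all clusters. The widest was that of Cidec, 0.45 ± 0.21, which had an unadjusted p of 0.0402 (limma, adjusted p = 0.445). It was the only 1 of the 8 with an unadjusted p under 0.05, where 1810 of 16715 clusters were. For Adipoq it was 0.31 ± 0.41 (adjusted p = 0.738, range over 13 other settings 0.294 to 0.895), with a 95% interval from -0.50 to 1.13. Within series 5 it was -0.70 ± 0.39 for Adipoq (unadjusted p = 0.0849) and within series 6 it was 1.18 ± 0.56 (unadjusted p = 0.0433), so the 2 series lay on opposite sides of 0. Series 6 minus series 5 was 1.88 ± 0.77 for this Adipoq value (unadjusted p = 0.0181, adjusted p = 0.9998). In series 6 the responses of Cidec (0.72 ± 0.29, adjusted p = 0.278) and Pparg (0.44 ± 0.18, adjusted p = 0.278) also had an unadjusted p under 0.05, and in series 5 none of the 8 had. Without both BALB/cJ mice set apart by Chil3 the series 6 values were 1.10 ± 0.60 for Adipoq, 0.61 ± 0.30 for Cidec and 0.39 ± 0.19 for Pparg. None of the 8 passed by limma in either series, where 0 and 2 of all clusters passed and 704 and 2758 had an unadjusted p under 0.05. The Adipoq and Cidec calls in C57BL/6J mice were not shown to differ from the responses of BALB/cJ mice.

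Between strains at the same challenge, 0 of the 8 genes passed after PBS, where 4.66% of clusters passed. None of the 8 had an unadjusted p under 0.05 there, where 2100 of 16715 clusters had. Within the 2 number series some of the differences after PBS had opposite directions, as given below. After Der p 1, 0 of the 8 passed over all mice, where 13.3% of clusters passed. At the unadjusted level 1 of the 8, Lpl, was under 0.05, as were 5157 of 16715 clusters. Its level was 8.46 ± 0.26 in BALB/cJ and 8.20 ± 0.19 in C57BL/6J mice after Der p 1 (SD, n = 14 and 12). The difference was 0.26 ± 0.11 (limma, unadjusted p = 0.0211, adjusted p = 0.0992). This Lpl difference was 0.55 ± 0.14 within series 5 (adjusted p = 0.0528), where the groups did not overlap, as for 1.01% of all clusters in that direction. Within series 6 it was 0.06 ± 0.10 (adjusted p = 0.687), and series 6 minus series 5 was -0.49 ± 0.17 (unadjusted p = 0.00621, adjusted p = 0.550), a test that 0.0179% of clusters passed. In these comparisons after Der p 1, 0 of the 8 genes passed in either series by limma. Of all clusters 1.31% passed in series 5 and 21.3% in series 6. Those of the 8 with an unadjusted p under 0.05 were Lpl in series 5 and Lep in series 6 (-0.21 ± 0.09, adjusted p = 0.0975). That was 1 of 8 in each series, beside 2045 of 16715 clusters in series 5 and 6269 in series 6.

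Adipoq averaged 4.73 in BALB/cJ and 4.71 in C57BL/6J mice after Der p 1 and 5.34 in BALB/cJ and 5.63 in C57BL/6J mice after PBS. Its strain differences were 0.02 ± 0.28 after Der p 1 and -0.29 ± 0.30 after PBS. In series 5 the Adipoq level after PBS was 5.96 ± 0.65 in BALB/cJ and 5.32 ± 0.48 in C57BL/6J mice (SD, n = 5 each), a difference of 0.65 ± 0.27 (unadjusted p = 0.0265, adjusted p = 0.399). In series 6 it was 4.82 ± 0.79 in BALB/cJ and 5.89 ± 1.32 in C57BL/6J mice (SD, n = 6 each), a difference of -1.07 ± 0.42 (unadjusted p = 0.0172, adjusted p = 0.207). BALB/cJ mice were thus higher on average in series 5 and lower in series 6, and the difference over all mice is an average of both.

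The strain difference of Fabp4 after PBS turned in the same way. It was -0.08 ± 0.17 over all mice, 0.49 ± 0.18 in series 5 (unadjusted p = 0.0123, adjusted p = 0.267) and -0.55 ± 0.21 in series 6 (unadjusted p = 0.0135, adjusted p = 0.176). For Cidec it was -0.24 ± 0.16 over all mice, 0.16 ± 0.17 in series 5 and -0.58 ± 0.22 in series 6 (unadjusted p = 0.0148, adjusted p = 0.187). The Cidec groups of series 6 did not overlap, with levels from 6.57 to 7.07 in BALB/cJ and from 7.13 to 7.79 in C57BL/6J mice after PBS, as for 2.12% of all clusters in that direction. Series 6 minus series 5 was -1.72 ± 0.56 for Adipoq (unadjusted p = 0.00343), -1.04 ± 0.29 for Fabp4 (unadjusted p = 0.000807) and -0.74 ± 0.30 for Cidec (unadjusted p = 0.0172). None of these passed over all clusters (adjusted p = 0.9998 each), and neither did any cluster by limma, while 3.86% of all clusters had an unadjusted p under 0.05. Within the series 0 of the 8 genes passed after PBS by limma, where 1.65% of clusters passed in series 5 and 4.15% in series 6. In these fits 1561 of 16715 clusters had an unadjusted p under 0.05 in series 5 and 2148 in series 6. Without both BALB/cJ mice set apart by Chil3 the series 6 differences after PBS were -1.05 ± 0.45 for Adipoq, -0.62 ± 0.22 for Fabp4 and -0.54 ± 0.23 for Cidec.

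Without both BALB/cJ mice set apart by Chil3, 0 of the 8 genes passed in either strain comparison or in the comparison of responses. Of all clusters 4.6% passed there between strains after PBS, 10.7% between strains after Der p 1 and 0.0179% in the comparison of responses.

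The spread between lungs of 1 group was wide for some of these genes. Over all 48 mice Adipoq ran from 3.75 in mouse 6 of the BALB/cJ PBS group to 7.41 in mouse 6 of the C57BL/6J PBS group, a range of 3.66. The range was 1.95 for Retn, 1.82 for Cidec, 1.67 for Fabp4, 1.47 for Lpl, 1.46 for Pparg, 1.37 for Lep and 1.21 for Plin1. Repeat arrays of 7 mice, 3 arrays each, give a measure of array error. Most of these mice were of series 5 and none was in the C57BL/6J PBS group, so the array error of that group was not measured. For Adipoq the SD was 0.265 between repeat arrays of a mouse and 0.737 between mice of a group. For Fabp4 it was 0.138 between arrays and 0.402 between mice, and for Cidec 0.133 and 0.376. For Plin1 (0.247 between arrays and 0.294 between mice) and Lep (0.293 and 0.315) the 2 were close. The value for Lep rested on 1 mouse, whose 3 arrays had an SD of 0.676, and over the other 6 mice the SD between repeat arrays was 0.156 for Lep and, without its own widest mouse, 0.205 for Plin1.

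Within groups, the level of Adipoq followed that of Retn, Fabp4 and Cidec from lung to lung. The mean of its group was taken from each value, and each of the 7 other genes was set against Adipoq over 48 mice with a two-sided permutation test within groups, adjusted over the 7. Pearson's r was 0.809 for Retn (adjusted p = 3.5e-05), 0.689 for Fabp4 (adjusted p = 3.5e-05) and 0.499 for Cidec (adjusted p = 9.33e-05). The smallest p the permutations can give is 1e-05. Spearman's rho was 0.677, 0.514 and 0.529 for the same 3 genes (adjusted p = 0.00014, 0.00161 and 0.00021). For Lpl (r = 0.256), Plin1 (0.237), Pparg (0.106) and Lep (0.0995), the relation did not pass (adjusted p = 0.182, 0.182, 0.541 and 0.541; rho between 0.128 and 0.223, adjusted p = 0.249 to 0.418).

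Without the 2 mice farthest from the median of Adipoq, mice 6 and 8 of the C57BL/6J PBS group, r was 0.752 for Retn, 0.603 for Fabp4 and 0.479 for Cidec, and all 3 still passed. Without both BALB/cJ mice set apart by Chil3, r was 0.824 for Retn, 0.741 for Fabp4 and 0.473 for Cidec. Within the 28 mice of series 6 r was 0.890, 0.733 and 0.439 for these genes, and all 3 passed. Within the 20 mice of series 5 r was 0.608 for Retn (adjusted p = 0.125), 0.506 for Fabp4 (0.125) and 0.243 for Cidec (0.481), and 0 of 7 passed by Pearson's r. By Spearman's rho, Lpl passed in series 5 (0.660, adjusted p = 0.0197).

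**Figure D3:**
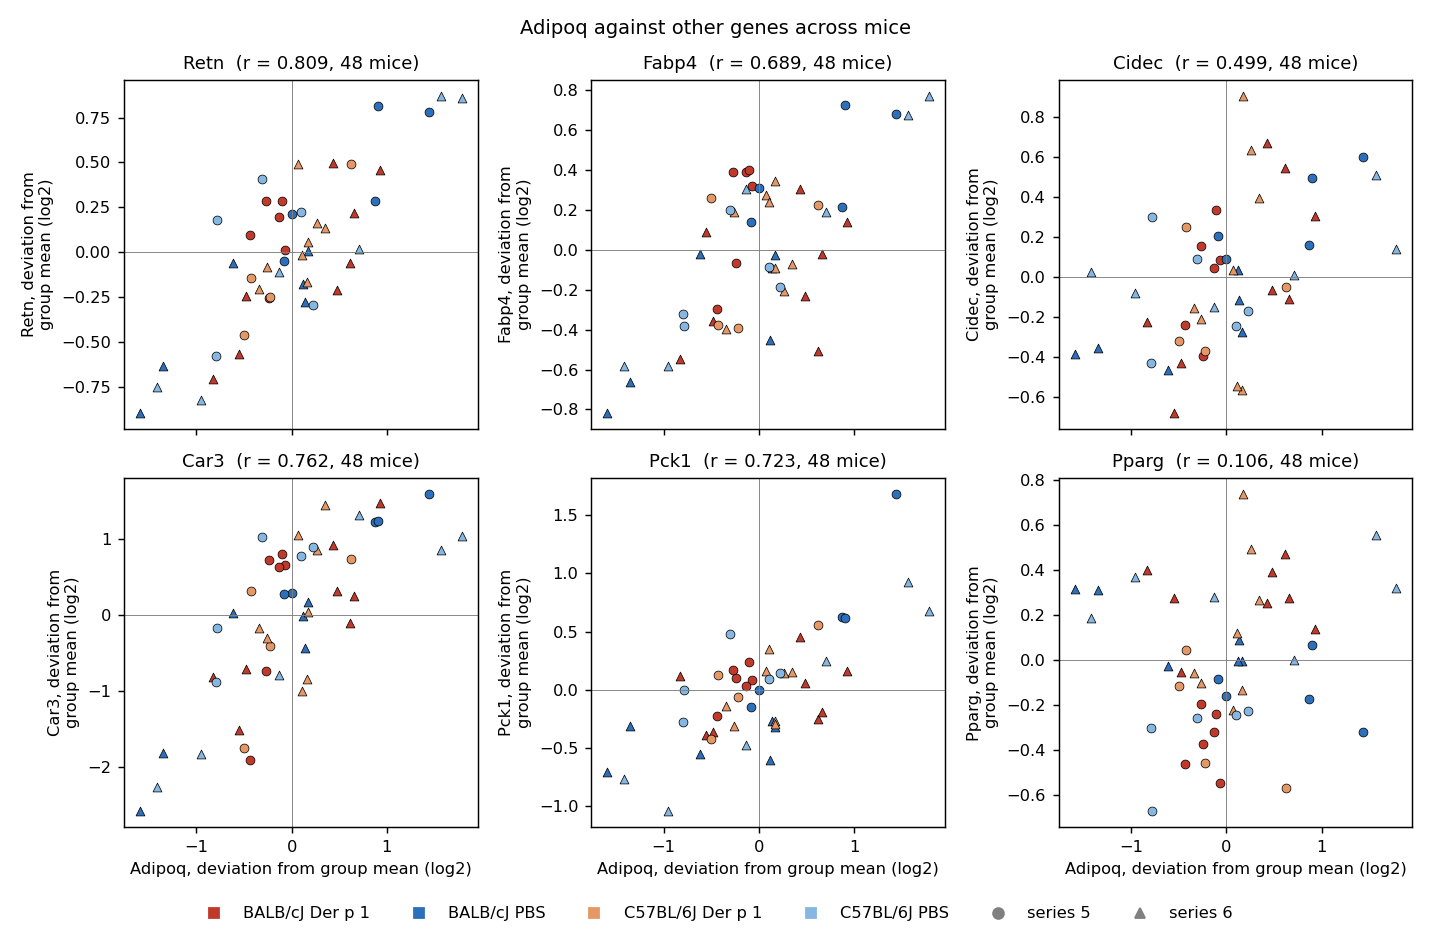
Each point is 1 of 48 mice, with its Adipoq level minus the mean of its group (horizontal axis, log2) against the same for Retn, Fabp4, Cidec, Car3, Pck1 and Pparg (vertical axes, log2), coloured by group and shaped by number series. Retn (r = 0.809) and Car3 (r = 0.762) rise with Adipoq, and Pparg (r = 0.106) does not follow it.

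As a label, fat cell genes held in part: Retn, Fabp4 and Cidec followed Adipoq, while Plin1, Lep and Pparg did not and varied with the array SD. Against the array SD, r was -0.829 for Plin1 and -0.765 for Lep (adjusted p = 2.67e-05 each over 8 genes) and 0.663 for Pparg (adjusted p = 2.67e-05). The values of rho were -0.836, -0.754 and 0.668 (adjusted p = 2.67e-05 each). Retn had r = -0.328 (adjusted p = 0.0288, rho = -0.332), while Adipoq had -0.052 and Cidec 0.030. Fabp4 had r = -0.248 (adjusted p = 0.111) and rho = -0.393 (adjusted p = 0.0120). Within series 5 r was -0.779 for Plin1, -0.729 for Lep and 0.630 for Pparg. Within series 6 it was -0.864, -0.506 and 0.408 for the same genes, of which Pparg did not pass (adjusted p = 0.0968).

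Without the 2 mice farthest from the median of the array SD, r was -0.776 for Plin1, -0.717 for Lep and 0.591 for Pparg. Plin1 and Lep also followed each other (r = 0.702), and both ran against Pparg. How many genes of the array follow each gene differs widely. Of 14823 other genes, r was above 0.5 for 16 with Adipoq and 29 with Fabp4, but for 4371 with Plin1, 3661 with Lep and 3098 with Pparg. The group means were taken over both number series, so a shift between the series also enters these values. The mean array SD, for example, was 1.86 in series 5 and 1.98 in series 6. The values of 1 array also share its RNA preparation and scan, so these are descriptions and not counts of related genes.

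**Figure D4:**
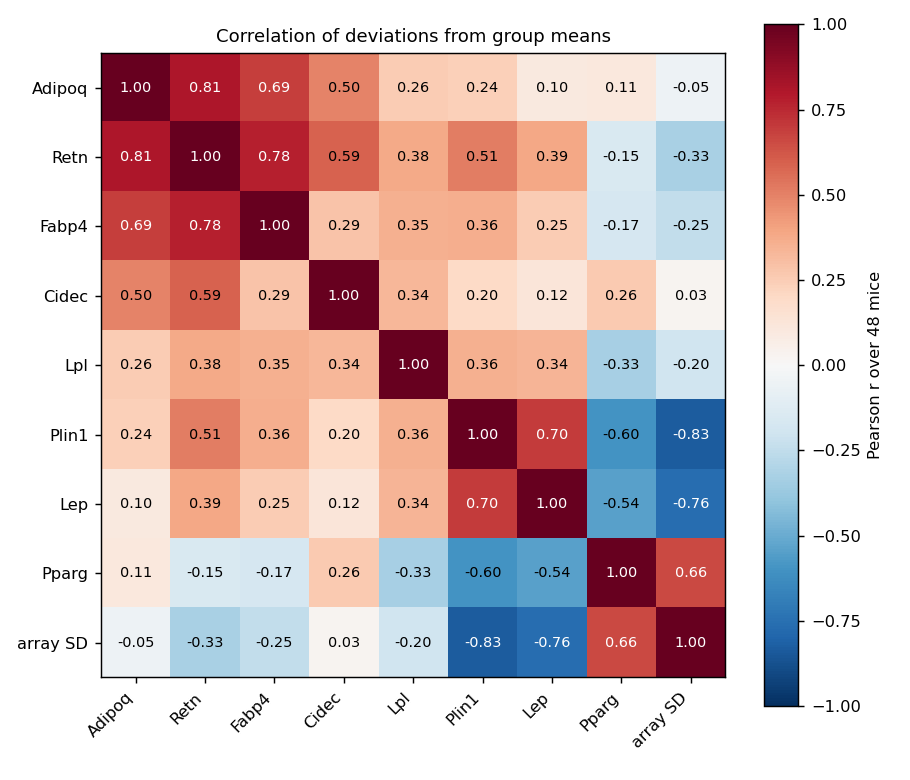
Pearson's r over 48 mice between the deviations from group means of each pair of the 8 genes and of the array SD, in red for values above 0 and blue for values below 0. Adipoq, Retn and Fabp4 form 1 block (r of 0.69 to 0.81), and Plin1 and Lep form another that runs against the array SD.

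The genes outside the set whose deviations were most like those of Adipoq over 48 mice were taken as the 12 highest by Pearson's r. They were led by Car3 (0.762), a carbonic anhydrase of fat and skeletal muscle, and Pck1 (0.723), the enzyme that supplies glycerol for triglyceride in fat cells. Others with a role in fat were Dgat2 (0.581), which makes triglyceride, Thrsp (0.578), a regulator of fatty acid synthesis, and Mrap (0.562), a partner of melanocortin receptors. Pln (0.600), Sln (0.574), Mlip (0.547) and Myoz2 (0.546) are genes of heart and other striated muscle, and Cox8b (0.513) encodes a cytochrome oxidase subunit of muscle and brown fat. B3galt2 (0.701), a galactosyltransferase, and Cyp2e1 (0.548), a cytochrome P450, completed the 12.

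Car3 had lowest, median and highest levels of 5.04, 6.72 and 8.24 in C57BL/6J mice after Der p 1, against 5.73, 8.78 and 9.32 after PBS. Its mean was 6.79 ± 0.94 after Der p 1 and 8.00 ± 1.26 after PBS, and it fell by 1.21 ± 0.44 (adjusted p = 0.0458). Of the 12 genes, Cyp2e1 (-1.26 ± 0.24), Pln (-1.36 ± 0.41), Mlip (-0.85 ± 0.29) and Dgat2 (-0.46 ± 0.14) also passed as lower in C57BL/6J mice, where 8.97% of all clusters did. Among BALB/cJ mice 0 of the 12 passed by limma over all mice, beside 1.93% of all clusters. Dgat2 (-0.49 ± 0.13) and Thrsp (-0.52 ± 0.16) passed as lower without both mice set apart by Chil3, where 1.52% of all clusters did. These genes were chosen for their likeness to Adipoq in the same lungs, so their differences are no separate support for that of Adipoq.

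The mean level of heart muscle markers varied with Adipoq by Pearson's r, though the relation did not pass by Spearman's rho. Their list holds Sln, which is also 1 of the 12 genes most like Adipoq. Of the 11 markers on that list 7 were measured, and their mean level in a mouse ran from 4.60 to 7.29 in BALB/cJ mice after Der p 1 and from 4.70 to 7.71 after PBS. That of C57BL/6J mice ran from 4.66 to 7.10 after Der p 1 and from 4.71 to 7.48 after PBS, so each group held lungs with low and with high levels. Its r with Adipoq was 0.437 (adjusted p = 0.0196 over 15 lists, rho = 0.292, adjusted p = 0.148), 0.437 within series 5 and 0.599 within series 6. After challenge 0 of the 7 markers passed in either strain by limma, with medians of -0.37 in C57BL/6J and 0.15 in BALB/cJ mice. Of all clusters 18.8% passed in C57BL/6J and 1.93% in BALB/cJ mice. None of the 7 had an unadjusted p under 0.05, where 5751 of 16715 clusters had in C57BL/6J and 2005 in BALB/cJ mice. The part of heart muscle content in the Adipoq difference was not tested.

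Of the 15 lists, the mean level of the lipid droplet and triglyceride genes was the most closely tied to Adipoq (r = 0.524, adjusted p = 0.0042, rho = 0.486). The fatty acid synthesis genes had r = 0.381 (adjusted p = 0.0196) and the adipokines and their receptors 0.317 (adjusted p = 0.046). Without the 2 mice farthest from the median of Adipoq the 3 values were 0.523, 0.376 and 0.389. Within series 5 they were 0.517, 0.264 and 0.241, and within series 6 0.484, 0.337 and 0.258, and 0 of these 6 passed by Pearson's r. By Spearman's rho the lipid droplet (0.521) and fatty acid synthesis genes (0.440) passed in series 6. The lipid droplet list holds Pck1 and Dgat2 and the fatty acid synthesis list holds Thrsp. All of these are among the 12 genes most like Adipoq, so the list relations are not separate from those genes.

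For Pparg the most alike genes were Rida, Atg10, Cytip, Ctso and Xrcc4 (r of 0.868 to 0.883), whose own r with the array SD was 0.716 to 0.819. The mean of 12 measured alveolar macrophage markers had r = 0.739 with Pparg (rho = 0.731, adjusted p = 5e-05 each), and 0.714 without the 2 mice farthest from the median of Pparg. Within series 5 it was 0.568 (adjusted p = 0.0371, rho = 0.601 with adjusted p = 0.115) and within series 6 0.325 (adjusted p = 0.220). The mean of 12 measured partners of Lpl had r = 0.455 with Pparg (adjusted p = 0.00338), 0.661 within series 5 and 0.804 within series 6. For Lpl the most alike genes were Jade2, Slc6a2, Rora, Spon1 and Zhx2 (r of 0.675 to 0.716). Their r with Lpl was lower within each series, 0.233 to 0.520 in series 5 and 0.367 to 0.625 in series 6.

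The wider genes of fat storage and fat hormones were then counted from lists chosen by function. After challenge of C57BL/6J mice 7 of 22 measured lipid droplet and triglyceride genes fell and 1 rose, where 8.97% of all clusters passed as lower and 18.8% in either direction, with a median of -0.19 against 0.06 over all genes. The 4 with the smallest adjusted p were Lpin1 (-0.67 ± 0.17), a phosphatase of triglyceride synthesis, Agpat2 (-0.69 ± 0.19), an acyltransferase of the same path, the caveolin gene Cav1 (-0.45 ± 0.13) and Dgat2 (-0.46 ± 0.14). Abhd5 (-0.35), Gpam (-0.33) and Mgll (-0.46) also fell, and Cideb, a relative of Cidec, rose by 0.29 ± 0.10. Of the same 22 genes 0 passed by limma in BALB/cJ mice, beside 1.93% of all clusters, with a median of -0.10. In these mice 7 had an unadjusted p under 0.05, 6 of them lower, beside 2005 of 16715 clusters in either direction. Dgat2 alone passed there without both mice set apart by Chil3.

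Of 10 fatty acid synthesis genes, 3 fell in C57BL/6J mice, beside 8.97% of all clusters: Acly (-0.43 ± 0.10), which makes acetyl-CoA for the path, the elongase Elovl5 (-0.58 ± 0.13) and the desaturase Scd2 (-0.47 ± 0.11). None of the 10 passed in BALB/cJ mice by limma, and 3 had an unadjusted p under 0.05, beside 2005 of 16715 clusters. Thrsp alone passed without both mice. The medians were -0.20 in C57BL/6J and -0.02 in BALB/cJ mice, against 0.06 and -0.03 over all genes in those strains.

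Of 16 measured adipokines and receptors, 5 fell in C57BL/6J mice, beside 8.97% of all clusters, with a median of -0.19 against 0.06 over all genes. The receptors of the hormones were among them: Cdh13 (-0.79 ± 0.19), which binds adiponectin at the cell surface, the adiponectin receptor gene Adipor2 (-0.41 ± 0.10), the leptin receptor gene Lepr (-0.42 ± 0.12) and the insulin receptor gene Insr (-0.36 ± 0.12). The fifth was Angptl4 (-0.63 ± 0.15), an inhibitor of lipoprotein lipase. For BALB/cJ mice 1 of the 16 passed, beside 1.93% of all clusters. This was Ccdc80, which rose by 0.93 ± 0.20, and the median was -0.04 against -0.03 over all genes. Without both mice Itln1 (1.07 ± 0.21), which encodes omentin, also rose, where 4.84% of all clusters passed.

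Of 18 adipogenic regulators, 4 fell and 1 rose in C57BL/6J mice, with a median of -0.06 against 0.06 over all genes. These counts stand beside 8.97% of all clusters that passed as lower and 18.8% that passed in either direction. Klf15 (-0.93 ± 0.21), a glucocorticoid-responsive factor, the liver X receptor gene Nr1h3 (-0.61 ± 0.13), Ppara (-0.38 ± 0.12) and Irs1 (-0.41 ± 0.13) fell, and the coactivator gene Ppargc1b rose by 0.50 ± 0.11. By limma 0 of the 18 passed in BALB/cJ mice, with a median of -0.05, and 6 had an unadjusted p under 0.05, beside 2005 of 16715 clusters. Without both mice Klf15 (-0.80 ± 0.20) and Ppara (-0.38 ± 0.11) fell in BALB/cJ mice. Of 9 brown fat genes, Dio2, which activates thyroid hormone, passed in each strain, by 0.40 ± 0.15 in C57BL/6J (adjusted p = 0.0495) and 0.51 ± 0.14 in BALB/cJ mice (adjusted p = 0.0436). That is 1 of 9 in each strain, where 18.8% of all clusters passed in C57BL/6J and 1.93% in BALB/cJ mice. The medians of the brown fat genes were -0.04 in C57BL/6J and -0.06 in BALB/cJ mice.

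The proteins that work with lipoprotein lipase had the lowest median of the 6 lists related to fat in C57BL/6J mice, -0.30 against 0.06 over all genes. There 5 of 12 measured partners fell, where 8.97% of all clusters passed as lower: Lipg (-0.86 ± 0.17), the endothelial lipase gene, Angptl4, Apoe (-0.52 ± 0.12), Gpihbp1 (-0.43 ± 0.15), which anchors lipoprotein lipase to capillaries, and the lipoprotein receptor gene Vldlr (-0.40 ± 0.15). None of the 12 passed in BALB/cJ mice by limma, with or without both mice, and the median was -0.10 over all mice. Over all mice 1 had an unadjusted p under 0.05, beside 2005 of 16715 clusters. Endothelial markers moved in the same direction in C57BL/6J mice. Of 14 such markers 6 fell, beside the same 8.97%: Tek (-0.60 ± 0.13), Esam (-0.43 ± 0.09), Kdr (-0.61 ± 0.15), Ramp2 (-0.59 ± 0.14), Cdh5 (-0.36 ± 0.11) and Emcn (-0.66 ± 0.23). Their median was -0.32, and their mean level ran from 9.16 to 10.03 after Der p 1 and from 9.77 to 10.07 after PBS. Tek alone of the 14 passed in BALB/cJ mice (-0.44 ± 0.12), where 0.233% of all clusters passed as lower, with a median of -0.18, and Kdr (-0.47 ± 0.14) and Ramp2 (-0.53 ± 0.13) joined it without both mice. The part of endothelial content in these differences was not tested.

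**Figure D5:**
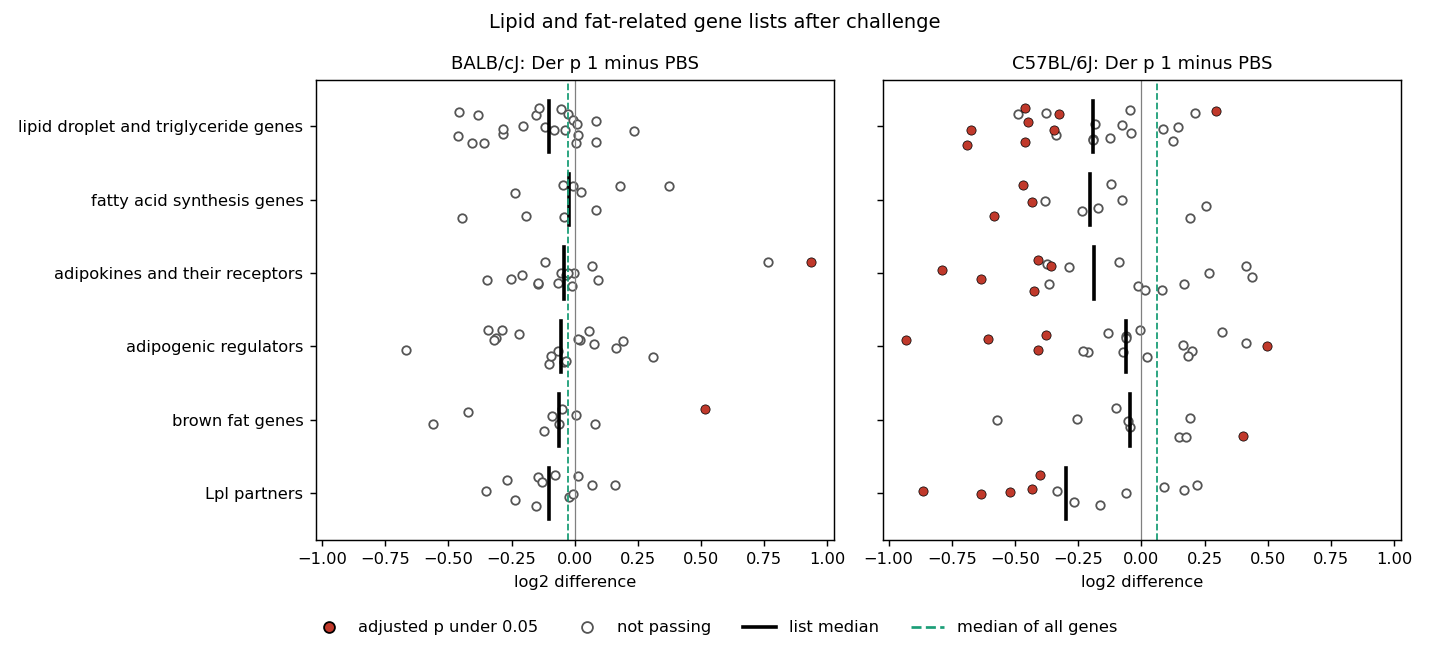
Difference between Der p 1 and PBS mice (horizontal axis, log2) of each measured gene of 6 lists related to fat, in BALB/cJ (left) and C57BL/6J mice (right), with red points for an adjusted p under 0.05, black bars for list medians and a dashed line for the median of all genes. In C57BL/6J mice 7 of 22 lipid droplet genes and 5 of 12 partners of Lpl are red and below 0.

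Alveolar macrophage markers, the other cell type known for Pparg, moved in both directions. In C57BL/6J mice Chil3 (1.23 ± 0.42) and Mrc1 (0.66 ± 0.21) rose and Bhlhe41 (-0.62 ± 0.15), Fabp1 (-0.86 ± 0.25) and Cd9 (-0.35 ± 0.11) fell among 12 measured, beside 18.8% of all clusters in either direction, with a median of 0.01. Their mean level ran from 7.43 to 8.45 after Der p 1 and from 7.61 to 8.45 after PBS. For BALB/cJ mice Chil3 (2.11 ± 0.41) and Mrc1 (0.74 ± 0.20) rose, beside 1.93% of all clusters, with a median of 0.13. The part of these cells in the Pparg and Cidec differences was not tested.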

How the data were processed

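Per the labels, the authors deposited log2 values from RMA of the core exons, computed in Partek Genomics Suite (version not given in the sources used here). Raw intensities were not used here, and probes over strain polymorphisms were not masked. Of 16715 clusters, 14959 had 1 symbol in the platform annotation, 1016 several and 740 none, and the brightest cluster of a gene was used. The 3 arrays of each of 7 mice were averaged. Groups came from the labels. With no read depth, the number of mice and the repeat arrays limit the precision, and p-values measure the spread between mice.

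A linear model with 4 group means was fitted with limma 3.58.1 in R 4.3.3 and tested on simulated data. It gave 5 comparisons, each adjusted over all clusters. Correlations used deviations from group means and 100000 permutations (Python 3.11.15, numpy 2.4.6). The genes named are the 9 fat cell genes, the 12 genes most like Adipoq and the 5 most like Pparg and Lpl, and up to 4 genes with the smallest adjusted p of each list, plus every other gene that passed after challenge in the lists described. The members and lists were chosen with earlier results of these data known, so no p was computed over the fat cell genes as a set. Alternatives were another scaling or prior, covariates, each number series alone, leaving out mice or dim clusters, the first array of each mouse and the compared groups alone. The fits across the 2 number series, for strain differences too, the repeat arrays without 1 mouse, those with the number series and the array SD together, the relations to the array SD and to list means, and series 6 without 2 BALB/cJ mice, with the series difference, list counts and correlations without them, were added after the data were seen.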

Additional observations from a re-analysis of the deposited data

How the results depend on the processing

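Of 424 values under 15 other settings, 382 kept their direction and side of the threshold, 28 turned direction, 5 newly passed, 5 no longer passed and 4 counts moved. Within series 5 alone, 1 gene passed in BALB/cJ mice, 1 passed in C57BL/6J mice, and 0 relations with Adipoq passed by Pearson's r. With the number series and the array SD as covariates 1 gene passed in C57BL/6J mice, and Adipoq (-0.99) had an adjusted p of 0.0517 (range over 13 settings 0.00998 to 0.192). The cause was not tested. The directions that turned were these. In series 5 alone, Lpl was -0.0327 in BALB/cJ mice, Fabp4 0.0571 and Plin1 -0.0026 in C57BL/6J mice, the Adipoq response of BALB/cJ minus C57BL/6J mice -0.70 and that of Pparg -0.14, the strain differences after PBS 0.65 for Adipoq, 0.49 for Fabp4 and 0.16 for Cidec, that of Adipoq after Der p 1 -0.0536, and the r with Adipoq -0.024 for Lep and -0.174 for Pparg. In series 6 alone, Adipoq was 0.0725, Fabp4 0.18, Plin1 0.0022 and Retn 0.0096 in BALB/cJ mice, and Lep 0.0909 in C57BL/6J mice. Lep in C57BL/6J mice was 0.0095 with the number series as a covariate and 0.0453 with the first array of each mouse, where the Adipoq strain difference after Der p 1 was -0.0182. Plin1 in C57BL/6J mice was -0.14 with the array SD as a covariate and -0.10 with the number series added, and the Pparg response of BALB/cJ minus C57BL/6J mice was -0.0740 with the array SD. Without both mice set apart by Chil3, Fabp4 in BALB/cJ mice was 0.0154 and the Adipoq strain difference after Der p 1 was -0.0241, and in series 6 without them Fabp4 was 0.298, Plin1 0.0086 and Retn 0.0628. The r of Pparg with Adipoq was -0.071 without the 2 mice farthest from the median of Adipoq. Leaving out 1 mouse at a time, between 1 and 3 genes passed in C57BL/6J mice and 0 in BALB/cJ mice, Fabp4 ran from -0.10 to 0.0510 in BALB/cJ and from -0.0855 to 0.0501 in C57BL/6J mice, and Lep from -0.10 to 0.0301 in C57BL/6J mice. The strain difference of Fabp4 after PBS ran from -0.15 to 0.0058 and that of Adipoq after Der p 1 from -0.0477 to 0.0871. No paired analysis was possible because mice of different groups are not tied to each other in the labels, and the replicate numbers in the labels count repeat arrays of a mouse. Lep could not be tested with the dimmest 25% of clusters left out, and dim genes such as Lep have the least signal over background.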

Other observations

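The lowest levels of Adipoq and of Fabp4 over all lungs were both in mouse 6 of the BALB/cJ PBS group (3.75 and 4.57). The highest of both were in mouse 6 of the C57BL/6J PBS group (7.41 and 6.23). Mouse 8 of that group held the highest levels of Cidec (7.79), Retn (6.91) and Pparg (7.41).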
